A study of Mus musculus with 9 samples.

Results

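The genes of the extracellular matrix of the postnatal mouse cortex were followed across Gap43 genotypes. They were taken as the probe sets whose single gene symbol names a collagen, a laminin, a fibulin, a fibrillin, a thrombospondin, tenascin C or R, versican, neurocan, brevican, a link protein (Hapln), reelin, fibronectin, a nidogen, a syndecan or a glypican. This gave 121 probe sets of 73 genes, out of 22690 probe sets on the array. A further 1 probe set with several symbols, 1 of them matching, was left out. Tissue was laser microdissected from layer IV of the barrel cortex, the somatosensory layer that receives whisker input from the thalamus. The mice were C57BL/6 at postnatal day 5 and differed at Gap43, which encodes a growth cone phosphoprotein: WT mice carry the normal gene, HZ mice are heterozygous and KO mice are knockouts. Each genotype had 3 mice and 1 Affymetrix array per mouse, so that n = 3 per genotype and 9 arrays in all. Neither the deleted segment of Gap43 nor whether the mice were littermates is given in the labels. Sex-linked transcripts placed 2 females and 1 male in each genotype.

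Brain matrix differs from that of connective tissue. Its bulk is hyaluronan, held by lecticans (versican, neurocan and brevican, which are chondroitin sulfate proteoglycans) and crosslinked by link proteins and tenascins, while laminins, type IV collagen and nidogen form the basement membranes of vessels and of the pial surface. In the developing barrel cortex, neurocan and tenascin C are known as molecules of the boundaries between barrels, and reelin, made by Cajal-Retzius cells and some interneurons, guides neuronal layering. Syndecans and glypicans carry heparan sulfate at the cell surface and bind growth factors.

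Of the matrix probe sets, 59 (48.8%) of 47 genes passed the filter that kept the 60% of all probe sets with the highest mean log2 signal, and 62 did not. Over all genes named by 1 symbol, 68.6% had a tested probe set, against 64.4% of the matrix genes. The untested matrix probe sets had mean signals between 5.70 and 121, with a median of 53.0, and the tested ones between 120 and 2138. By role, the tested genes were 3 of 5 lecticans and link proteins, 9 of 12 glycoproteins, 9 of 20 basement membrane genes, 6 of 9 fibrillar collagens, 13 of 19 other collagens and 7 of 8 cell surface proteoglycans. Of the genes that define cortical matrix, Hapln1, Hapln2 and Lamc1 had probe sets below the filter, and Tnr, Hapln3, Hapln4 and Gpc2 were not analysed here.

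Gap43 itself gave scaled signals of 7089, 4746 and 4294 on the WT arrays, 5015, 5039 and 4389 on the HZ arrays and 979, 1930 and 1299 on the KO arrays. The KO arrays lay below all others, and the WT and HZ arrays overlapped. The median correlation between arrays over the tested probe sets was 0.963 within genotypes and 0.963 between them. HZ 2 stood apart in the ratio of 3' to 5' signal of the actin control, at 25.1 where the other arrays lay between 7.80 and 12.4. For the Gapdh control it was 27.9, and 11.49 to 19.45 on the other arrays. The 3' signal was thus far above the 5' signal on every array. What this meant for probe sets away from the 3' end was not tested. For several comparisons with HZ the value without HZ 2 is also given.

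The 250 bases upstream of the RefSeq transcription start (build GRCm38.p6) are shown for 4 of the genes whose KO arrays were all above or all below the WT and HZ arrays, neurocan, tenascin C, Col8a1 and Col9a1, chosen after their values were seen. RefSeq windows were found for 52 of the 73 genes. Of several starts the one farthest upstream was taken, which applied to Tnc and Col9a1, with 2 windows each. Capitals mark the TATA-like motif TATAA, the GC box GGGCGG and the CCAAT box, read on both strands, each sequence being written 5' to 3' on the gene's strand.
Ncan, chr8:70120845-70121094, minus strand: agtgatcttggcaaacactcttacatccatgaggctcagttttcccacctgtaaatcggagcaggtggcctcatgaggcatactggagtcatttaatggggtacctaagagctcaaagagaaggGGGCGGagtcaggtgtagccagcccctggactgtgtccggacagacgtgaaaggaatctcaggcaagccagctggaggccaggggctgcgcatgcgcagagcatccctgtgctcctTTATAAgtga
Tnc, chr4:64047016-64047265, minus strand: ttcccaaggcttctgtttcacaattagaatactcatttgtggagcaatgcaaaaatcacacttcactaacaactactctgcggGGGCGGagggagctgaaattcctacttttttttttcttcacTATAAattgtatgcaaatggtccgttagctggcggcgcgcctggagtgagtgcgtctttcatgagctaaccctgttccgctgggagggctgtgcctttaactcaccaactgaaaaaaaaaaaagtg
Col8a1, chr16:57754738-57754987, minus strand: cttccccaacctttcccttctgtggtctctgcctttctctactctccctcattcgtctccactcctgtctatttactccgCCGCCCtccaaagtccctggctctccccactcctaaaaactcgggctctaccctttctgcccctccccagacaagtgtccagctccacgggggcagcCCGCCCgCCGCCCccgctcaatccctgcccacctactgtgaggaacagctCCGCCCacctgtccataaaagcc
Col9a1, chr1:24177360-24177609, plus strand: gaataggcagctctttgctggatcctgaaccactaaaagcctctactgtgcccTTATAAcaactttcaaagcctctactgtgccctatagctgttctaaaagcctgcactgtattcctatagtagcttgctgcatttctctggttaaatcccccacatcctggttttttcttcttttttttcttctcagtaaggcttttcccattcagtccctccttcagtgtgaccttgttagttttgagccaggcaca

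The Ncan window holds 1 GGGCGG, with its first base 126 bases before the start, and TATAA on both strands, overlapping, with first bases 10 and 9 bases before it. The Tnc window holds 1 GGGCGG at 167 bases and 1 TATAA at 126 bases before the start. The Col8a1 window holds 4 GGGCGG, all on the reverse strand, at 170, 73, 66 and 23 bases, and no TATAA. The Col9a1 window holds only TATAA, on both strands and overlapping, at 197 and 196 bases. CCAAT occurs in none of the 4 windows. Of 32851 RefSeq windows of this length, 22.8% hold TATAA, 32.7% GGGCGG and 33.8% CCAAT. These matches are descriptions of letters and were not related to the arrays. Col8a1 lies on chromosome 16, as Gap43 does, with 79 protein-coding genes annotated between them, and it was the only one of the 73 genes annotated on that chromosome in RefSeq.

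Between KO and WT, 0 of the 59 matrix probe sets passed limma's adjusted p of 0.05, and the smallest adjusted p was 0.454, for Ncan. Over all 13576 tested probe sets 0.00737% passed, which was Gap43 alone. With an unadjusted limma p below 0.05 there were 6 matrix probe sets higher in KO (10.2%, where 4.43% of all probe sets were) and 2 lower (3.39%, where 3.59% were). The higher ones were Ncan, Col8a1, Tnc, Col9a3, Fbn2 and Col6a1, and the lower ones Col9a1 and Col26a1. The KO and WT arrays did not overlap for 8 probe sets (13.6%, against 13.7% of all), 5 higher and 3 lower, a share near the background. Of the 47 genes, each read by its probe set of highest mean, 32 were above 0 and 15 below. Their median log2 change was 0.11, and that of all 8503 genes was 0.021 with 53.6% above 0. The matrix median was 0.051 without WT 3 and 0.070 without KO 1, where that of all genes was 0.016 and 0.0052. It was 0.055 with arrays scaled to 1 median and 0.071 with quantile normalization, where all genes had -0.039 and 0.0053. Since the tissue is a bulk sample, fewer cells of a type and less RNA per cell cannot be told apart in any of these values.

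**Figure D1:**
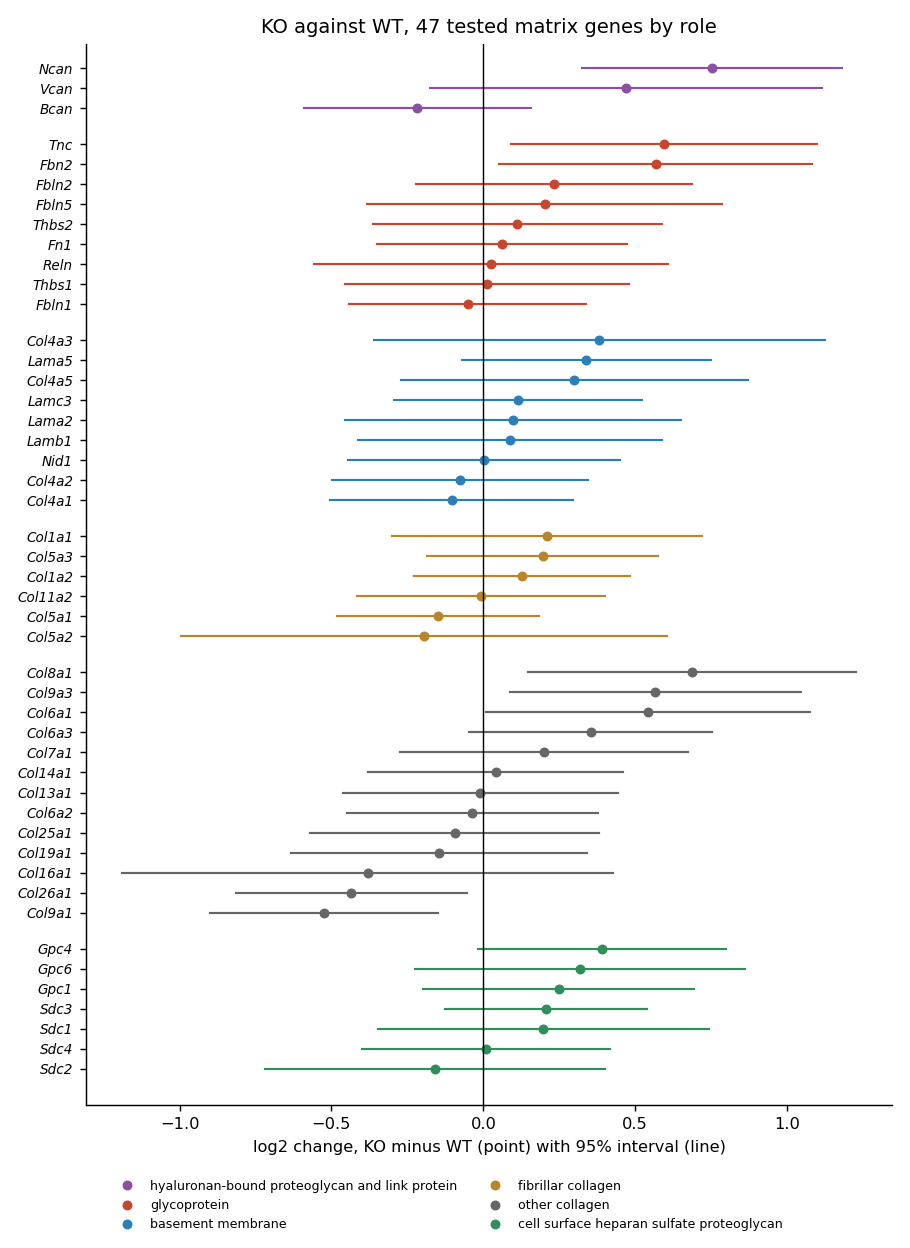
Log2 change between KO and WT (horizontal axis, KO minus WT, points) with its 95% interval from limma (lines) for the 47 tested matrix genes, coloured by role. The intervals of 8 genes exclude 0: Ncan, Tnc, Fbn2, Col8a1, Col9a3 and Col6a1 to the right, Col26a1 and Col9a1 to the left.

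**Figure D2:**
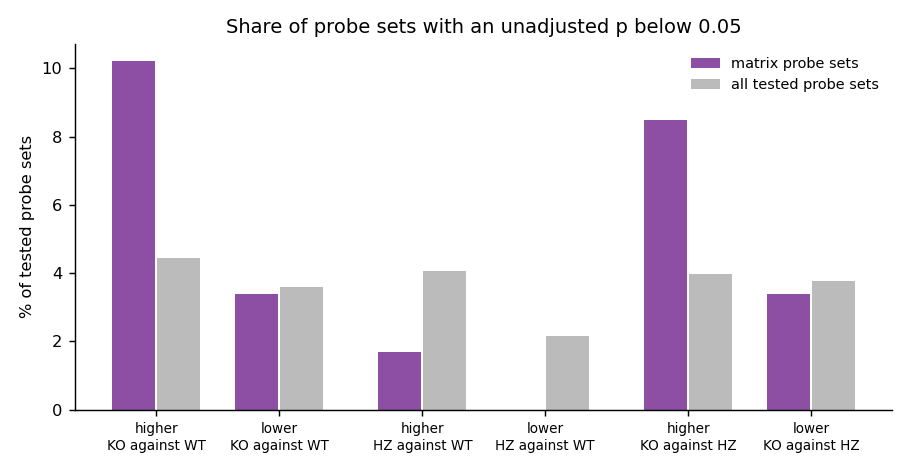
Share of tested probe sets (vertical axis, %) with an unadjusted limma p below 0.05, by direction and comparison, for matrix probe sets (purple, of 59) and all tested probe sets (grey, of 13576). The matrix share was 10.2% against 4.43% among those higher in KO than WT, and there was no matrix bar for those lower in HZ than WT.

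Among the lecticans, neurocan had the smallest p of any matrix gene between KO and WT. Its signal was 1334, 1557 and 2189 in WT, 1978, 1595 and 2094 in HZ and 3390, 2740 and 2367 in KO. All KO arrays were above all WT and HZ arrays, which overlapped each other. The log2 change was 0.75 in KO against WT (95% interval 0.32 to 1.18, 1.68-fold, limma adjusted p = 0.454). Against HZ it was 0.57 (0.15 to 1.003, limma adjusted p = 0.538), and between HZ and WT 0.18 (-0.25 to 0.61). The unadjusted p for KO against WT was below 0.05 in all 21 alternative settings run for this gene. Without KO 1, which had the highest signal, the value against HZ was 0.44 (limma adjusted p = 0.699), and without HZ 2 it was 0.46 (adjusted p = 0.638), both with an unadjusted p above 0.05.

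A second, dimmer neurocan probe set read 205, 243 and 216 in WT, 261, 274 and 301 in HZ and 288, 158 and 176 in KO. It placed KO at -0.13 against WT (95% interval -0.59 to 0.33) and at -0.44 against HZ, with HZ above WT on every array. The pair of probe sets therefore disagreed in direction in both KO comparisons, and the higher signal of neurocan in KO was that of 1 probe set.

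Versican, a lectican of migratory and early postnatal tissue, read 872, 376 and 664 in WT, 519, 603 and 778 in HZ and 1136, 574 and 907 in KO. The genotypes overlapped, and the log2 change of 0.47 in KO against WT had an interval from -0.18 to 1.12 (limma adjusted p = 0.735). Brevican, a lectican that accumulates as the cortex matures, read 494, 648 and 669 in WT, 533, 478 and 582 in HZ and 476, 593 and 476 in KO, a change of -0.22 (-0.59 to 0.16) that did not pass either. The 3 lecticans thus had 2 values above 0 and 1 below.

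Among the glycoproteins, tenascin C, a hexameric matrix protein that modulates cell adhesion, was higher in KO than WT on every array. It read 262, 271 and 258 in WT, 383, 171 and 303 in HZ and 415, 384 and 421 in KO. The KO arrays were all above the WT arrays, whereas the HZ arrays spanned both, with HZ 1 just below the lowest KO array and HZ 2 below all WT arrays. The log2 change was 0.59 in KO against WT (95% interval 0.091 to 1.097, 1.51-fold, limma adjusted p = 0.574). Against HZ it was 0.55 (limma adjusted p = 0.614), which moved to 0.24 (adjusted p = 0.758) without HZ 2, the array with the high 3' to 5' ratio. HZ against WT gave 0.042 (-0.46 to 0.55), and 0.35 (-0.027 to 0.73) without HZ 2.

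Fibrillin 2, a microfibril protein of developing tissue, was named after its values were seen, as the fifth of the higher genes by p. It read 91.1, 125 and 75.3 in WT, 113, 143 and 118 in HZ and 113, 180 and 162 in KO. The WT and KO ranges overlapped, and the log2 change was 0.57 (0.053 to 1.08, limma adjusted p = 0.586). The unadjusted p was below 0.05 in 14 of 20 settings, and the change was 0.42 without WT 3.

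Reelin read 2241, 1804 and 1035 in WT, 1735, 1402 and 1347 in HZ and 1191, 1679 and 2203 in KO. Its arrays overlapped throughout, and the log2 change was 0.024 in KO against WT, with an interval from -0.56 to 0.61 that leaves room for a change of either sign. Fibronectin, the adhesive glycoprotein of vessels and of cell migration, read 1022, 1034 and 1226 in WT, 1102, 764 and 910 in HZ and 891, 1217 and 1356 in KO, a change of 0.060 (-0.35 to 0.47). Over the 9 glycoproteins, 8 were above 0 in KO against WT with a median of 0.11, which was 0.23 without KO 1 and 0.18 without WT 1, and 5 were above 0 without WT 3 or KO 3. Fbln1 was the one below 0, at -0.052.

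**Figure D3:**
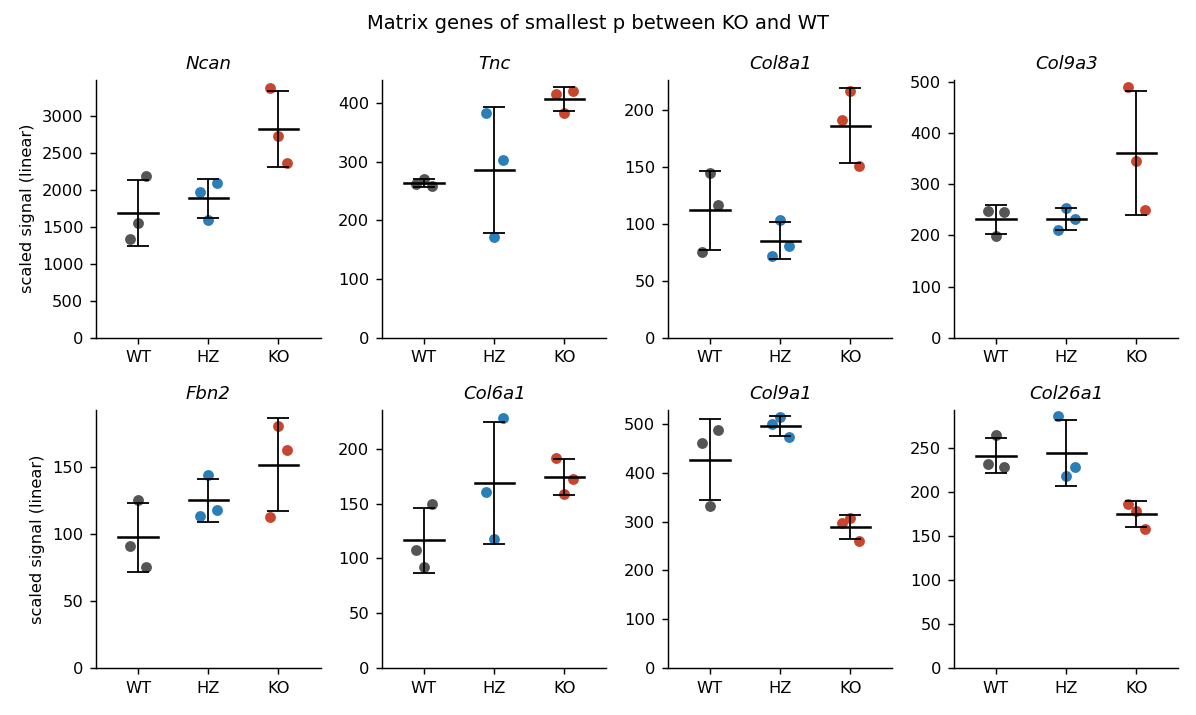
Scaled signal (vertical axes, linear, from 0) on each array by genotype for the 8 matrix genes with an unadjusted limma p below 0.05 between KO and WT; points are arrays, wide bars are means and whiskers are SD (n = 3). KO lies above WT without overlap for Ncan, Tnc, Col8a1, Col9a3 and Col6a1, overlaps it for Fbn2, and lies below it for Col9a1 and Col26a1.

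The basement membrane genes had 11 of 31 probe sets tested, and no tested one had an unadjusted p below 0.05 between KO and WT. Col4a1 and Col4a2, the chains that make up the common type IV collagen network of vessels, gave -0.10 (95% interval -0.50 to 0.30) and -0.077 (-0.50 to 0.34). Col4a1 read 838, 1100 and 1013 in WT, 1159, 784 and 779 in HZ and 893, 1002 and 837 in KO, with all genotypes overlapping. Lamb1, the laminin beta-1 chain, gave 0.087 (-0.41 to 0.59), and Nid1, which links laminin to type IV collagen, 0.0030 (-0.44 to 0.45). Over the 9 genes 7 were above 0, with a median of 0.097 in KO against WT. Without WT 3, 4 were above 0 and the median was -0.0038, and it was 0.17 without WT 1 and 0.15 without WT 2.

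Lama5, the laminin alpha-5 chain of mature vessel walls, read 202, 282 and 274 in WT, 220, 178 and 236 in HZ and 324, 360 and 282 in KO. KO was above HZ on every array, and the lowest KO array lay just below the highest WT array. This was a log2 change of 0.57 in KO against HZ (0.16 to 0.98, 1.49-fold, limma adjusted p = 0.506) and 0.34 against WT (-0.071 to 0.75, adjusted p = 0.700). Without HZ 2 the value against HZ was 0.46 (0.021 to 0.90, adjusted p = 0.628). Its second probe set gave 0.19 and 0.079 in the same comparisons, with overlapping arrays.

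Fibrillar collagens, the structural collagens of meninges and vessel walls, had 8 of 17 probe sets tested. No tested one had an unadjusted p below 0.05 in any comparison. In KO against WT 3 of 6 were above 0 and the median was 0.060 (0.031 to 0.11 with 1 KO or WT array left out, lowest without KO 3, highest without KO 2), with values between -0.19 for Col5a2 and 0.21 for Col1a1. Col1a2, a chain of type I collagen, read 236, 209 and 230 in WT, 286, 260 and 286 in HZ and 215, 251 and 278 in KO. HZ was above WT on every array, at 0.29 (-0.071 to 0.64, limma adjusted p = 0.790), and KO overlapped both.

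The other collagens held values well above and well below 0. Col8a1, a short-chain collagen of vessel walls and meninges, read 75.0, 144 and 116 in WT, 71.7, 103 and 80.7 in HZ and 191, 217 and 151 in KO. Its means of 112 in WT and 85.3 in HZ were below 118, the lowest mean of a tested probe set. Its place among the tested probe sets therefore rested on its KO signal. All KO arrays were above all WT and HZ arrays, which overlapped. This gave a log2 change of 0.69 against WT (0.15 to 1.23, 1.61-fold, limma adjusted p = 0.537) and 0.998 against HZ (0.46 to 1.54, 2.00-fold, limma adjusted p = 0.336). The pseudocount of 16 makes both understatements at signals this low, and against WT the value was 0.46 without WT 1 and 0.58 without KO 2, each with an unadjusted p above 0.05.

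Type IX collagen, which decorates fibrils of cartilage and vitreous, is built of alpha-1, alpha-2 and alpha-3 chains, and the chains read here went in opposite directions. Col9a1 read 461, 332 and 487 in WT, 500, 514 and 474 in HZ and 297, 307 and 261 in KO. Every KO array was below every WT and HZ array. The log2 change was -0.53 against WT (95% interval -0.90 to -0.15, 1.44-fold lower, limma adjusted p = 0.518) and -0.75 against HZ (-1.13 to -0.38, 1.68-fold lower, limma adjusted p = 0.306), the smallest p of any matrix probe set in the 3 comparisons. Its second probe set gave -0.29 and -0.49, with overlapping arrays.

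Col9a3 read 249, 199 and 246 in WT, 211, 254 and 232 in HZ and 490, 345 and 249 in KO. The KO arrays were above the WT arrays, KO 3 by a margin far smaller than the spread, and overlapped the HZ arrays. On the log2 scale the change was 0.57 against WT (0.086 to 1.04, limma adjusted p = 0.574) and 0.56 against HZ. Without KO 1 these values were 0.33 (adjusted p = 0.976) and 0.32 (adjusted p = 0.766). Its second probe set, dimmer and wider, gave 1.06 against WT (-0.11 to 2.23).

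Type VI collagen forms beaded filaments around vessels and in meninges, and 3 of its chains were read. Col6a3 read 225, 181 and 188 in WT, 327, 306 and 320 in HZ and 325, 214 and 242 in KO. All HZ arrays were above all WT arrays, and KO overlapped both. Its HZ against WT change of 0.65 (0.25 to 1.04, 1.56-fold, limma adjusted p = 0.790) held an unadjusted p below 0.05 in all 20 alternative settings run, and KO against WT was 0.35 (-0.046 to 0.75). Col6a1 read 108, 91.9 and 150 in WT, 160, 118 and 229 in HZ and 192, 159 and 173 in KO. KO was above WT on every array, at 0.54 (0.0099 to 1.07, limma adjusted p = 0.622), and HZ, at 0.46 (0.67 without HZ 2), overlapped WT. That p was below 0.05 in 9 of 20 settings. Col6a2 gave -0.036 in KO against WT and 0.097 (-0.32 to 0.51) in HZ against WT. Its second probe set gave -0.36 in HZ against WT (-0.86 to 0.14), with all HZ arrays below all WT arrays.

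Col26a1, a short collagen first known from testis and ovary, read 232, 264 and 228 in WT, 287, 218 and 228 in HZ and 187, 178 and 158 in KO. Every KO array was below every WT and HZ array, and those overlapped. Its log2 change was -0.43 against WT (-0.81 to -0.055, 1.35-fold lower, limma adjusted p = 0.580) and -0.44 against HZ (adjusted p = 0.590). Col16a1 gave -0.38 in KO against WT (-1.19 to 0.43), a value set by KO 3, at 51.2 where KO 1 and KO 2 read 192 and 195. Without KO 3 it was above 0. Col25a1, a transmembrane collagen of neurons, gave -0.095 (-0.57 to 0.38). Over the 13 other collagens, 6 were above 0 and 7 below in KO against WT, with a median of -0.0098, which turned to 0.16 without WT 2, 0.060 without KO 2 and 0.056 without KO 3 and was -0.10 without KO 1 and -0.056 without WT 1.

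The cell surface heparan sulfate proteoglycans had 11 of 17 probe sets tested, and no tested one had an unadjusted p below 0.05 in any comparison. In KO against WT 6 of 7 genes were above 0 with a median of 0.21, and in HZ against WT 7 of 7 with a median of 0.24. Without KO 1 the first median was 0.054 with 5 of 7 above 0, and without KO 3 it was 0.39. Without HZ 2 the second was 0.12. Glypican 4 read 435, 438 and 292 in WT, 418, 475 and 478 in HZ and 571, 525 and 431 in KO, so that the KO arrays overlapped the WT arrays only through KO 3. Its change was 0.39 (-0.017 to 0.80, limma adjusted p = 0.647). Syndecan 3, a syndecan of axons, read 1540, 1857 and 1452 in WT, 1725, 1760 and 1635 in HZ and 1946, 1574 and 2094 in KO, at 0.21 (-0.13 to 0.54). Gpc6 gave 0.32 in KO and 0.41 in HZ against WT, both with intervals that include 0.

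**Figure D4:**
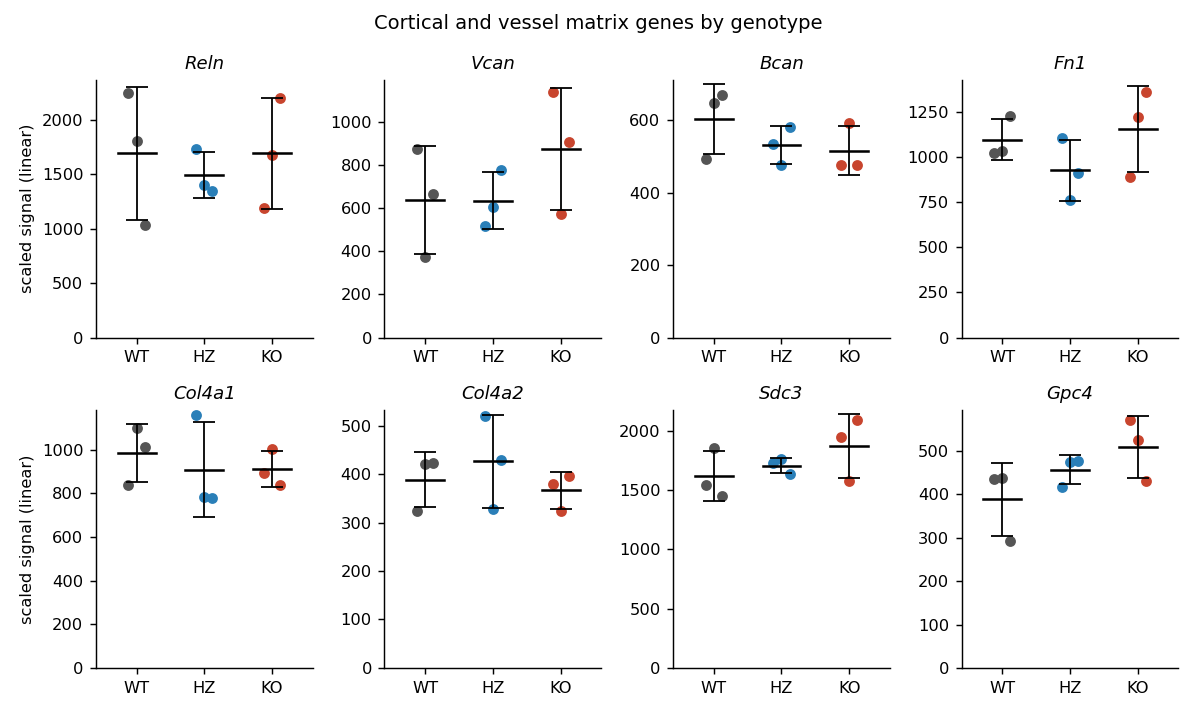
Scaled signal (vertical axes, linear, from 0) on each array by genotype for 8 genes of cortical or vessel matrix that the text names without an unadjusted limma p below 0.05 between KO and WT; points are arrays, wide bars are means and whiskers are SD (n = 3). The genotypes overlap in every panel, and reelin spans 1035 to 2241 within WT.

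Between HZ and WT, 0 matrix probe sets and 0% of all probe sets passed the adjusted threshold (smallest adjusted p of a matrix probe set 0.790). With an unadjusted limma p below 0.05, 1 was higher in HZ, Col6a3 (1.69%, against 4.06% of all), and 0 were lower (0%, against 2.16%). The arrays did not overlap for 7 probe sets (11.9%, against 12.9%), 6 of them higher. Of the 47 genes 33 were above 0, with a median of 0.11, where all genes had 0.039 with 56.7% above 0. Without WT 3, WT 1 or HZ 3 the matrix median was 0.053, 0.056 or 0.060, and that of all genes 0.035, 0.031 or 0.035. With each array scaled to 1 median the matrix median was 0.022 and that of all genes -0.052.

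Between KO and HZ, 0 matrix probe sets passed (smallest adjusted p 0.306, Col9a1), and over all probe sets 0.00737% did. With an unadjusted limma p below 0.05 there were 5 higher (8.47%, against 3.96% of all), which were Col8a1, Lama5, Ncan, Col9a3 and Tnc, and 2 lower (3.39%, against 3.76%), Col9a1 and Col26a1. The arrays did not overlap for 8 probe sets (13.6%, against 14% of all), 4 in each direction. Without HZ 2 there were 3 higher and 2 lower at that p, together 8.47% of the matrix probe sets against 7.81% of all. With all arrays these shares were 11.9% and 7.73%. Of the 47 genes 24 were above 0 and 23 below, with a median of 0.010, where all genes had -0.028 with 45.1% above 0. The 3 comparisons share arrays, so the genes that recur in them are not separate evidence.

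The spread within genotypes was described without a test. The median SD of log2 signal over arrays of 1 genotype was 0.26 over the 47 genes and 0.23 over all genes, and at mean signals of 150 to 600 it was 0.26 over 31 matrix genes and 0.24 over 4265 genes. The widest were Col16a1 at 0.60, Col5a2 at 0.58, Col4a3 at 0.53, versican at 0.48 and reelin at 0.43. Within KO, Col16a1 spanned 3.81-fold between arrays, and within WT Col4a3 spanned 3.48-fold and reelin 2.17-fold. Col5a1, a fibrillar collagen, was the narrowest at 0.066.

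Among the 11 genes read by more than 1 tested probe set, the probe sets went the same way for 8 in KO against WT. They disagreed for Ncan, Sdc1 and Col5a1. In HZ against WT they disagreed for Sdc1, Gpc6 and Col6a2, and in KO against HZ for 5 genes, Ncan, Sdc1, Gpc6, Col6a2 and Col4a1. Of the 3 Sdc1 probe sets, those at 0.20 and 0.30 in KO against WT were opposed by 1 at -0.61, which read 53.9 on HZ 3 and 52.6 on KO 3.

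**Figure D5:**
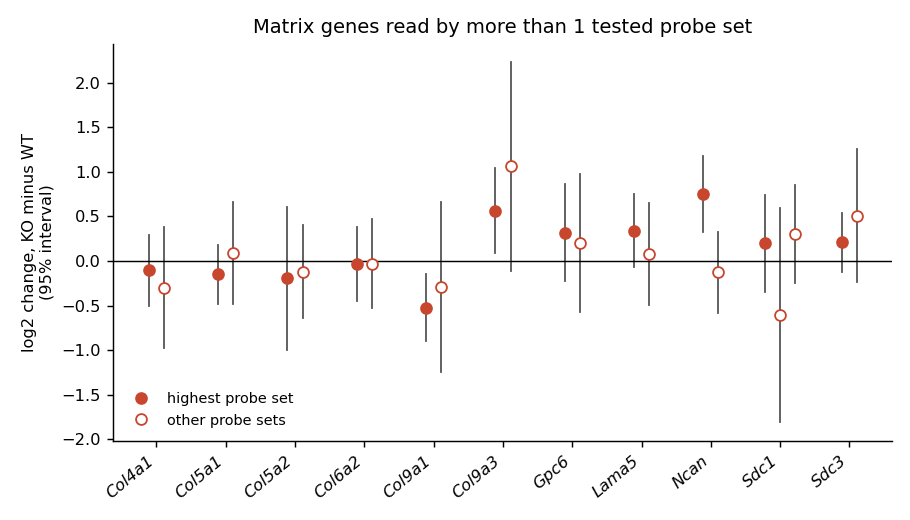
Log2 change between KO and WT (vertical axis, KO minus WT) with its 95% interval from limma for every tested probe set of the 11 matrix genes read by more than 1; the filled point is the gene's highest probe set and open points are the others. The Ncan probe sets lie at 0.75 and -0.13, those of Col9a1 at -0.53 and -0.29 and those of Col9a3 at 0.57 and 1.06.

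Genes that bind, cut, fold or glycosylate matrix were read from lists of receptors, proteases and inhibitors, collagen folding and crosslinking, glycosaminoglycan synthesis and other matrix proteins. Of their 130 tested probe sets of 91 genes, 6 were higher and 9 lower in KO against WT at an unadjusted limma p below 0.05, 5 and 2 in HZ against WT, and 6 and 6 in KO against HZ, with 0 past the adjusted threshold in each. As shares these were 4.62% and 6.92% (4.43% and 3.59% of all probe sets), 3.85% and 1.54% (4.06% and 2.16%), and 4.62% and 4.62% (3.96% and 3.76%). The receptors had 2 higher (5.56%) and 6 lower (16.7%) of 36 probe sets in KO against WT, while 12 of their 18 genes, each by its highest probe set, were above 0, with a median of 0.074. Ddr2, a collagen receptor kinase, read 135, 69.2 and 142 in WT and 160, 255 and 188 in KO, higher without overlap at 0.76 (limma adjusted p = 0.537). Itgav, the integrin alpha-V chain, read 1291, 1660 and 1392 in WT and 1087, 1240 and 1017 in KO, lower without overlap at -0.37 (adjusted p = 0.599); it and Sparc were named after their values were seen.

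Csgalnact1, which starts chondroitin sulfate chains of the kind that lecticans carry, read 553, 427 and 738 in WT and 934, 933 and 615 in KO, a change of 0.53 with overlapping arrays (adjusted p = 0.584). Sparcl1, an astrocyte-secreted matricellular protein, gave -0.46 (adjusted p = 0.537), and its relative Sparc, which binds collagen, read 951, 963 and 901 in WT and 645, 814 and 748 in KO, lower without overlap (-0.35, adjusted p = 0.622). Eln, elastin, gave 0.39 (adjusted p = 0.622), and Timp4, a metalloproteinase inhibitor, -0.62 (adjusted p = 0.646), with its WT arrays spread from 289 to 833. Of the 24 protease and inhibitor probe sets, 2 were higher (8.33%, against 4.43% of all) and 0 lower at an unadjusted limma p below 0.05. Timp4 was not among these.

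Markers of the cells that make matrix were read on the same arrays. Astrocytes are among the cells that make neurocan, tenascin C and brevican. Of 13 listed astrocyte markers 11 were tested, and their summed signal ranged from 16496 to 20654 in WT, 15458 to 16664 in HZ and 11430 to 15927 in KO. Of their 20 probe sets 10 were lower (50%, where 3.59% of all probe sets were) and 0 higher (0%, where 4.43% were) in KO against WT at an unadjusted limma p below 0.05. In KO against HZ 8 were lower (40%, where 3.76% of all were) and 0 higher. In both comparisons 0 passed the adjusted threshold, and several of these probe sets read the same gene. By gene, each by its highest probe set, 9 were below 0 and 2 above in KO against WT. In KO against HZ 7 were below and 4 above. On the same arrays, in KO against WT, the higher neurocan probe set and tenascin C were above 0 (0.75 and 0.59), and brevican and the second neurocan probe set were below 0 (-0.22 and -0.13). The endothelial sum (12 of 13 tested) ranged from 4392 to 5553 in WT, 4496 to 5444 in HZ and 3575 to 4428 in KO, and the mural sum (5 of 10) from 2616 to 3282, 3027 to 3318 and 2636 to 3213. The leptomeningeal fibroblast sum (4 of 9), of cells that make Col1a1, Col1a2 and Col6a3, ranged from 987 to 1165, 914 to 1070 and 857 to 1032. By the same count in KO against WT, 3 of 17 endothelial (17.6%), 0 of 7 mural and 0 of 4 leptomeningeal probe sets were lower. For oligodendrocyte lineage, microglia, interneuron and deep layer markers, 2 of 12 (16.7%), 1 of 6 (16.7%), 1 of 7 (14.3%) and 0 of 8 were lower. In each of these lists 0 were higher.

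The Cajal-Retzius sum (2 of 6 tested), of cells that make reelin, ranged from 474 to 1044 in WT, 710 to 1346 in HZ and 454 to 610 in KO. It is mostly Calb2, at -0.87 in KO against WT (limma adjusted p = 0.580), while the other tested marker, Ebf3, was at 0.43 (adjusted p = 0.731). The layer IV and upper layer sum (4 of 7) ranged from 2382 to 2673, 3126 to 3601 and 1510 to 2688. Of its 6 probe sets 1 was lower (16.7%) and 0 higher in KO against WT at an unadjusted limma p below 0.05. By gene 1 was above 0 and 3 below. Rorb, the transcription factor that defines layer IV neurons, read 541, 460 and 589 in WT, 709, 518 and 601 in HZ and 325, 356 and 302 in KO. It had the smallest p of this list in KO against WT, and the rule for named genes did not cover it. The tested markers had passed the filter for a high mean and detection calls were not used, so these signals do not by themselves show presence. The part of these markers in the matrix values was not tested.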

How the data were processed

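Values were deposited as linear probe set intensities, 1 array per mouse, which the submitters' processing notes credit to MAS5 and Affymetrix Expression Console. Versions and the scaling target were not given in the sources used here, and detection calls were not used. Per the labels, total RNA of laser-dissected tissue went through 2-cycle cDNA synthesis. The trimmed mean (2% left out at each end) was 500.2 on every array, and no further scaling was applied.

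Signals were taken as log2(signal + 16), which understates changes of dim probe sets. The 64 controls were left out, probe sets in the top 60% by mean log2 signal were kept (13576), and genotype was the only term of a linear model of the 9 arrays (limma 3.58.1, R 4.3.3, lmFit and eBayes with an intensity trend, 2-sided, 6 residual and 6.94 prior degrees of freedom). P-values were adjusted by Benjamini-Hochberg over all kept probe sets, and every unadjusted p in the text is from this limma fit. A gene was read by its probe set of highest mean. The fit was also run on simulated data with independent normal noise. Its recovery of changes as small as those described here is not given. Replicate numbers come from the titles and did not pair arrays (correlations of same-numbered deviations between -0.26 and 0.11). The number of arrays limits the precision.

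Named genes were, in each comparison, the 4 of smallest p in each direction, the tested members of a fixed list of cortical matrix genes, and the leading gene of each related list. Genes named only as an end of a range were chosen after their values were seen. Members, lists and rules were chosen with earlier results of these data known, and the scale on which the filter took its mean was settled after first values were seen. Alternatives are given in the closing section.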

Additional observations from a re-analysis of the deposited data

How the results depend on the processing

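No matrix probe set passed limma's adjusted threshold under any of the 21 alternatives run for each comparison. The count with an unadjusted p below 0.05 in KO against WT was 4 (of 22 tested) with the brightest 40% of probe sets kept. This was 18.2%, against 8.55% of all probe sets. The count was 5 to 9 with 1 array left out, lowest without KO 1 (8.47%, against 5.08% of all). Without WT 2 it was 7 (11.9%, against 10.5%). It was 6 with arrays scaled to 1 median and 6 with quantile normalization. Each was 10.2%, against 8.25% and 7.9% of all, with 4 higher and 2 lower. Without a filter it was 12 of 121 (9.92%, against 7.22%). In HZ against WT it was 7 (of 121) without a filter (5.79%, against 6% of all). It was 0 with the brightest 40% kept (0%, against 5.51%) and 5 with array weights (8.47%, against 13.4%). A term for the 3'/5' ratio (chosen after seeing the data) gave 2 (3.39%, against 6.8%). With 1 array left out it was 1 to 2. With the replicate block the counts were 9 in KO against WT, 1 in HZ against WT and 7 in KO against HZ. Their shares were 15.3%, 1.69% and 11.9%, against 7.27%, 5.62% and 7.12% of all probe sets. No adjusted call of a matrix probe set changed. Filtering by mean signal, also chosen after seeing the data, gave 7, 1 and 7 of 55. These were 12.7%, 1.82% and 12.7%, against 8%, 6.28% and 7.72% of all. In KO against HZ the count without a filter was 9 of 121 (7.44%, against 7.19% of all). In that comparison the split was 3 higher and 5 lower without KO 1 and 4 and 4 with array weights. Each was 13.6% of the matrix probe sets, against 7.34% and 10.6% of all. The HZ against WT median of the matrix genes was 0.022 with arrays scaled to 1 median and 0.061 with quantile normalization. All genes had -0.052 and 0.016 in these settings. The KO against WT median of the matrix genes was 0.060 with the brightest 40% kept, where that of all genes was 0.0040. The KO against HZ median, 0.010, fell below 0 without a filter (-0.030), with array weights (-0.056), and without HZ 2 (-0.072), HZ 3 (-0.0038) or KO 1 (-0.047). In the same order, the medians of all genes were -0.035, -0.037, -0.044, -0.022 and -0.0395. Of 69 values of named members, 47 kept their sign under every alternative run. The others had an unadjusted p of 0.05 or more, and all values with a smaller p kept their sign.

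With 3 arrays per genotype, the 95% intervals of most single genes included 0. Detection calls were not used here, so the dimmest probe sets have no stated floor, and the cause of the differences between settings was not tested.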
